A study of Mus musculus with 16 samples.

Results

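The tumour necrosis factor (TNF) superfamily genes of the mouse kidney were described here in 16 libraries of bulk RNA. Members were taken by symbol: every gene whose symbol starts with Tnfsf or Tnfrsf, together with Tnf, Lta, Ltb, Ltbr, Cd40 and Ngfr. This gave 38 genes of the 23935 symbols measured, of which 15 encode ligands and 23 encode receptors. All libraries came from whole kidneys of wild-type mice, with 4 libraries for each treatment: PBS, cisplatin, cisplatin with NR, and cisplatin with NMN. A DNA-damaging platinum drug, cisplatin injures the kidney tubule, whereas nicotinamide mononucleotide (NMN) and nicotinamide riboside (NR) are precursors of the cofactor NAD. Both precursors were given by injection ahead of cisplatin, and collection followed cisplatin by 3 days. Doses, strain, sex and age were not given in the sources used here, and there was no group with a precursor and no cisplatin. Libraries with cisplatin and a precursor are called the NMN and NR libraries below. No label states that the samples of a group were separate animals, so p-values reflect sample-to-sample spread that may be technical only.

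TNF family ligands are mostly trimers anchored in the cell membrane or cut from it, and they bind receptors that cluster on contact. Receptors with a death domain can recruit caspases or kinases that kill the cell, receptors without one bind TRAF adaptors that activate NF-kB and MAP kinases, and decoy or soluble receptors bind ligand without passing on a full signal. In the kidney, TNF, TWEAK and TRAIL and their receptors have been studied in tubular injury and inflammation.

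Values are TPM, transcript abundances per length scaled to a fixed total per library, so they can be compared between genes but keep no read depth, and the depth behind each value is unknown. Listed TPM summed to 860428 to 903678 per library. The kidney identity of the libraries was visible in tubule and glomerulus markers (9 genes, summed TPM of 4455 to 5388 with PBS, 745 to 1195 with cisplatin, 3307 to 4507 with NMN and 3106 to 3736 with NR). All 5 markers of injured tubule were higher with cisplatin than with PBS. Their summed TPM was 409 to 627 with PBS, 10277 to 12696 with cisplatin, 2089 to 4666 with NMN and 3543 to 5378 with NR. Summed adipose markers were also higher with cisplatin (224 to 411 against 25.4 to 125 TPM with PBS, 7 of 7 tested genes higher) and spanned 23.8 to 395 TPM with NR. Markers of red blood cells went from 1876 to 3820 TPM with PBS to 8.20 to 33.9 TPM with cisplatin (5 of 5 lower), and measured 1357 to 2882 TPM with NMN and 1268 to 2603 TPM with NR. With cisplatin against PBS, 3 of 4 tested dendritic cell markers were lower, namely H2-Aa, H2-Ab1 and Cd74. Their means were 78.4, 84.4 and 220 TPM with PBS and 7.05, 14.6 and 31.2 TPM with cisplatin. Flt3 and Clec9a of the same list were too low to be tested. Of 7 fibroblast and pericyte markers, 6 were lower and 1, Cspg4, was higher. Both of the tested B and plasma cell markers were higher, and 2 of 10 macrophage markers were higher and 2 lower. PBS 1, cisplatin 1 and cisplatin 3 had the lowest weights when limma weighted the libraries (0.566, 0.675 and 0.679). The part of these marker shifts in the results below was not tested. In bulk RNA, fewer cells of a type and less RNA per cell cannot be told apart.

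Differences were taken from a limma model of log2(TPM + 1), and a gene was called higher or lower at a Benjamini-Hochberg adjusted p under 0.05 over all 12960 tested genes, which had at least 1 TPM in at least 4 libraries. Of the 38 members 18 passed this minimum: 5 of 15 ligands, 4 of 5 death domain receptors, 2 of 4 decoy or soluble receptors and 7 of 14 TRAF-binding receptors without a death domain. The cisplatin libraries were needed for 1 of the 18, Tnfrsf11a, to pass. Log2 differences are on the log2(TPM + 1) scale, which understates the change of low genes, and every n is 4 libraries per group.

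With cisplatin alone, 10 of 18 tested members (55.6%) were called higher than with PBS, and 3 (16.7%) lower. Among all tested genes 40.7% were called higher and 18.6% lower, so the lower share was near that of all genes. The median log2 difference was 0.97 over the 18 members and 0.27 over all tested genes. When the libraries were scaled by median of ratios, all genes split into 29.2% higher and 28.6% lower and the median of all genes moved to -0.0005, while the members stayed at 10 higher and 3 lower. The 10 higher members were 8 receptors (Tnfrsf12a, Tnfrsf23, Tnfrsf10b, Tnfrsf18, Tnfrsf22, Tnfrsf1a, Tnfrsf1b and Ltbr) and the ligand genes Tnfsfm13 and Tnfsf12. The 3 lower members were the ligand gene Tnfsf10 and the receptor genes Tnfrsf14 and Tnfrsf25. Libraries of the groups did not overlap for any of these 13. Among all tested genes, 35.3% had no overlap upwards and 15.6% downwards. Without cisplatin 4 the higher count was 11, and without PBS 3 or without cisplatin 2 the lower count was 2.

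Summed over the 38 members, expression was 201 to 257 TPM with PBS, 1091 to 1319 with cisplatin, 359 to 544 with NMN and 435 to 537 with NR. A single gene, Tnfrsf12a, made up 5.31% to 8.16% of that sum with PBS and 59.6% to 63.0% with cisplatin. Its share was 27.3% to 46.7% with NMN and 37.3% to 47.6% with NR.

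The 4 upstream windows shown here belong to Tnfrsf12a and Tnfrsf23, the receptor genes with the largest log2 differences between cisplatin and PBS, a receptor of TNF and the joint ligand gene. Each is the 250 bases before the start site in RefSeq (GRCm38.p6), read 5′ to 3′ on the strand of the gene, which is minus for all. The windows lie at chr17:23677450-23677699 (Tnfrsf12a), chr7:143685876-143686125 (Tnfrsf23), chr4:145246871-145247120 (Tnfrsf1b) and chr11:69696099-69696348 (Tnfsfm13). Capitals mark the matches found among 4 motifs searched on both strands: the NF-kB site, the p53 half-site, the AP-1 site TGACTCA and the interferon-stimulated response element (ISRE), written TTTC, any 2 bases, TTTC.
Tnfrsf12a: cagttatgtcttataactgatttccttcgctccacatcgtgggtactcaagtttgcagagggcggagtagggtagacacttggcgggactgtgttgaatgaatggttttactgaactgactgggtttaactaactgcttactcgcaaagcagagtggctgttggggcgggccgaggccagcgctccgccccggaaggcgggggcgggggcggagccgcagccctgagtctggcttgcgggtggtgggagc
Tnfrsf23: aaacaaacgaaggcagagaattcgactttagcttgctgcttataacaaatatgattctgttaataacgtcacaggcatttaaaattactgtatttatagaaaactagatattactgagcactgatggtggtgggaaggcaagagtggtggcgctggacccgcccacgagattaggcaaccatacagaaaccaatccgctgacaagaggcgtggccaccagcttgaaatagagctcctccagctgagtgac
Tnfrsf1b: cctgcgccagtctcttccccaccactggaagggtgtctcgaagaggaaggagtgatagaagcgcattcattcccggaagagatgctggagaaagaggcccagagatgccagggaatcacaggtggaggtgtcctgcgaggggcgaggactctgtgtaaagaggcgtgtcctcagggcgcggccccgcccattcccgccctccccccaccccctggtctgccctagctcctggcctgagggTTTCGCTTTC
Tnfsfm13: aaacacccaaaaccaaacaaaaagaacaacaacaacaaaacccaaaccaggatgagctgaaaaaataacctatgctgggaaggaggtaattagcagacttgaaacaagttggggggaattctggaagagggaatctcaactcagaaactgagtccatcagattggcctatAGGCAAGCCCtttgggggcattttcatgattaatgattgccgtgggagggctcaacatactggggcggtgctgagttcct
The Tnfrsf1b window held an ISRE match 10 bases before the start, and the Tnfsfm13 window a p53 half-site match 80 bases before it. The other 2 windows held no match. The window of Tnfrsf1a, the other receptor of TNF and the one with the larger log2 difference, is not shown and held no match for any of the 4 motifs. Of the 18 tested members 14 had a window in the table, and 1 held an NF-kB match, 2 an AP-1 match, 2 a p53 half-site match and 3 an ISRE match. Among 32851 windows of the same length, 7.25%, 4.46%, 7.13% and 2.98% held these in the same order. These shares are per window, while the member counts are per gene, and Tnfrsf25 and Tnfsf13b had more than 1 window each. The Tnfrsf12a window held 15 CpG dinucleotides, that of Tnfrsf1b 12, that of Tnfrsf23 8 and that of Tnfsfm13 2, against a median of 6 over all windows. A match is a description of letters and not a shown site.

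Among the ligands, Tnfsf12 and the joint gene Tnfsfm13 on chromosome 11 were higher with cisplatin, Tnfsf10 was lower, and Tnfsf13 and Tnfsf13b were not called. Tnfsf12 encodes TWEAK, the ligand of the Tnfrsf12a product. Tnfsf12 measured 17.5, 24.5, 17.65 and 17.7 TPM in PBS libraries 1 to 4 and 47.2, 36.1, 41.8 and 42.0 TPM in cisplatin libraries 1 to 4. It measured 20.7, 21.3, 23.5 and 17.3 TPM with NMN and 22.0, 25.7, 25.0 and 19.4 TPM with NR. Every cisplatin library was above all the others, which overlapped one another. Against PBS, the log2 difference was 1.08 (SE 0.14, limma adjusted p = 2.54e-06), a 2.16-fold ratio of means. Against cisplatin alone it was -0.98 with NMN (adjusted p = 1.43e-05) and -0.84 with NR (adjusted p = 9.2e-05).

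Tnfsfm13 is the joint gene that GENCODE vM21 places over Tnfsf12 and Tnfsf13 (chromosome 11, 69682577 to 69696098, minus strand, GRCm38), and its product joins parts of TWEAK and APRIL. It measured 2.80, 2.71, 2.25 and 2.79 TPM with PBS and 22.95, 17.85, 23.1 and 14.0 TPM with cisplatin. Values were 9.82, 5.62, 7.76 and 4.04 TPM with NMN and 9.64, 6.92, 10.6 and 6.38 TPM with NR. The 3 cisplatin-treated groups all lay above PBS, and cisplatin alone lay above both precursor groups. The log2 difference was 2.47 for cisplatin against PBS (SE 0.22, limma adjusted p = 2.65e-08), 1.05 for NMN against PBS (adjusted p = 0.00547) and 1.34 for NR against PBS (adjusted p = 0.000399). Of the exon bases of Tnfsfm13, 32.7% are also exons of Tnfsf12 and 44.0% of Tnfsf13, and 48.3% of the exon bases of Tnfsf12 and 60.0% of those of Tnfsf13 belong to Tnfsfm13 as well. How the authors' counting divided reads among the 3 genes was not stated in the labels, so the levels of all 3 are uncertain.

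Tnfsf13, which encodes APRIL, a survival factor of B and plasma cells, measured 1.71, 2.56, 3.09 and 2.35 TPM with PBS and 3.10, 6.45, 3.38 and 2.21 TPM with cisplatin. It measured 1.84, 0.94, 1.07 and 1.77 TPM with NMN and 1.15, 0.88, 1.19 and 1.85 TPM with NR. Cisplatin and PBS overlapped, and the log2 difference between them was 0.42 (95% interval -0.07 to 0.92, limma adjusted p = 0.133; 0.59 and adjusted p = 0.0445 without cisplatin 4). Both precursor groups lay below cisplatin alone, by log2 differences of -0.94 with NMN (adjusted p = 0.00308) and -1.02 with NR (adjusted p = 0.0018).

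Tnfsf10 encodes TRAIL, the ligand of the death receptor Tnfrsf10b and of the decoy receptors Tnfrsf22 and Tnfrsf23. It measured 5.80, 5.85, 8.28 and 9.86 TPM with PBS and 3.18, 2.34, 1.44 and 1.73 TPM with cisplatin. With NMN it measured 3.66, 5.07, 5.65 and 7.81 TPM and with NR 4.34, 5.21, 4.00 and 6.43 TPM. Every cisplatin library was below all others, and the precursor groups overlapped PBS. The log2 difference was -1.41 for cisplatin against PBS (SE 0.22, limma adjusted p = 2.83e-05), 1.04 for NMN against cisplatin (adjusted p = 0.000885) and 0.93 for NR against cisplatin (adjusted p = 0.00238). Tnfsf13b, which encodes the B cell factor BAFF, averaged 1.11 ± 0.97 TPM with PBS and 1.25 ± 1.02 in cisplatin libraries, 0.84 ± 0.54 with NMN and 0.98 ± 0.38 with NR (SD), and was called in no comparison.

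**Figure D1:**
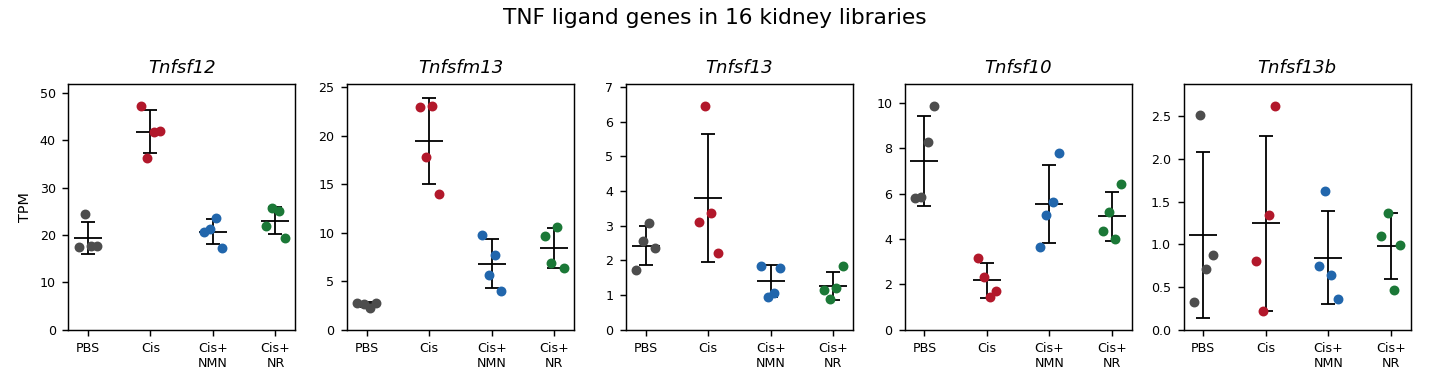
Expression (TPM, linear axis from 0) of the 5 tested ligand genes in each of the 16 libraries; points are libraries, the horizontal bar is the group mean and the whiskers are 1 SD. Cisplatin libraries sit above all others for Tnfsf12 and Tnfsfm13 (means of 41.8 and 19.5 TPM) and below all others for Tnfsf10 (mean of 2.17 TPM).

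Of the 4 tested death domain receptors, Tnfrsf10b and Tnfrsf1a were higher with cisplatin, Tnfrsf25 was lower and Tnfrsf21 was not called. Tnfrsf10b, the mouse death receptor of TRAIL and a known target of p53 (chromosome 14, 69767472 to 69784411, plus strand), measured 0.92, 1.05, 1.56 and 0.86 TPM with PBS and 27.4, 20.01, 25.5 and 17.8 TPM with cisplatin. NMN libraries measured 5.79, 3.41, 8.60 and 3.53 TPM and NR libraries 8.70, 5.38, 5.85 and 5.61 TPM. The precursor groups lay wholly between PBS and cisplatin. The log2 difference of cisplatin from PBS was 3.49 (SE 0.23, limma adjusted p = 4.6e-10), and the ratio of means was 20.7. Tnfrsf10b stayed above PBS with NMN (log2 difference 1.53, adjusted p = 0.000235) and with NR (1.81, adjusted p = 2.62e-05).

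Tnfrsf1a encodes TNFR1, the main receptor of soluble TNF. It measured 20.4, 24.3, 27.4 and 22.9 TPM with PBS and 91.3, 92.6, 80.4 and 85.4 TPM with cisplatin. It measured 36.8, 33.3, 48.9 and 34.6 TPM with NMN and 53.2, 46.0, 48.0 and 48.8 TPM with NR. Each precursor library lay between all PBS and all cisplatin libraries. The log2 difference from PBS was 1.84 with cisplatin (SE 0.12, limma adjusted p = 6.03e-10), 0.66 with NMN (adjusted p = 0.00185) and 1.02 with NR (adjusted p = 1.5e-05).

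Tnfrsf25, the receptor DR3, best known on T cells, averaged 2.09 ± 1.06 TPM with PBS, 0.67 ± 0.36 in cisplatin libraries, 1.75 ± 0.46 with NMN and 1.45 ± 0.97 with NR (SD). Its log2 difference of cisplatin from PBS was -0.85 (limma adjusted p = 0.0159), and the call was lost without PBS 3 (adjusted p = 0.0635) or without cisplatin 2 (adjusted p = 0.0525). Tnfrsf21, the receptor DR6, was the most abundant member in PBS libraries, with 103 ± 19.9 TPM there, 106 ± 9.99 in cisplatin libraries, 104 ± 11.9 with NMN and 113 ± 15.3 with NR. The difference of cisplatin from PBS was 0.06 (95% interval -0.23 to 0.34, adjusted p = 0.733), and the 4 groups overlapped.

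The decoy TRAIL receptors Tnfrsf23 and Tnfrsf22, which bind TRAIL and lack a death domain, were both higher with cisplatin. They lie side by side on chromosome 7 (143665809 to 143685872 and 143634806 to 143649661, minus strand), 16.15 kb apart. Tnfrsf23 measured 0.07, 0.57, 0.53 and 0.15 TPM with PBS and 56.8, 36.55, 50.5 and 43.9 TPM with cisplatin. It measured 7.63, 4.00, 7.13 and 4.07 TPM with NMN and 8.40, 5.84, 6.51 and 5.84 TPM with NR. Every library with cisplatin, alone or with a precursor, was above PBS, by log2 differences of 5.17 (SE 0.21, limma adjusted p = 6.65e-13), 2.31 with NMN (adjusted p = 5.62e-07) and 2.53 with NR (adjusted p = 1.39e-07).

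Tnfrsf22 measured 0.34, 1.06, 1.90 and 2.26 TPM with PBS and 12.2, 11.4, 16.4 and 10.4 TPM with cisplatin. It measured 3.74, 1.51, 2.13 and 0.97 TPM with NMN and 3.81, 3.04, 2.63 and 1.85 TPM with NR. Here the precursor groups overlapped PBS. Relative to PBS, log2 differences were 2.57 with cisplatin (SE 0.29, limma adjusted p = 4.19e-07), 0.37 with NMN (95% interval -0.23 to 0.97, adjusted p = 0.59) and 0.74 with NR (0.14 to 1.34, adjusted p = 0.123). Of the 50-base words in Tnfrsf22 transcripts, 27.4% also occur in another gene, 17.3% in Tnfrsf23 and 8.9% in Gm47486, and 18.0% of the words of Tnfrsf23 occur in Tnfrsf22. Reads could have been divided between these genes, so both levels are uncertain. The third gene of the cluster, Tnfrsf26, 6.08 kb from Tnfrsf22, reached at most 1.11 TPM and did not pass the minimum.

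The TRAF-binding receptors included Tnfrsf12a, the tested member with the highest level with cisplatin. It encodes Fn14, the small receptor of TWEAK, known to be induced in injured tissue (chromosome 17, 23675445 to 23677468, minus strand). Tnfrsf12a measured 14.8, 16.1, 20.5 and 13.7 TPM with PBS and 832, 713, 661 and 653 TPM with cisplatin. It measured 213, 136, 254 and 98.2 TPM with NMN and 198, 162, 256 and 192 TPM with NR. The 3 levels did not overlap: PBS was lowest, the precursor groups lay between, and cisplatin alone was highest. The log2 difference of cisplatin from PBS was 5.38 (SE 0.23, limma adjusted p = 2.49e-12), a 43.9-fold ratio of means. NMN and NR lay -2.11 and -1.83 from cisplatin alone (adjusted p = 9.13e-07 and 5.62e-06) and 3.27 and 3.55 from PBS (adjusted p = 3.1e-08 and 8.77e-09).

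Tnfrsf18 encodes GITR, a costimulatory receptor best known on T cells. It measured 0.57 and 0.39 TPM in PBS 1 and 2, was listed at 0 in PBS 3 and 4, and measured 8.58, 7.99, 5.67 and 7.76 TPM with cisplatin. It measured 1.84, 1.32, 2.25 and 2.05 TPM with NMN and 3.04, 2.14, 1.55 and 1.74 TPM with NR. The groups of PBS, of the precursors and of cisplatin alone did not overlap. The log2 difference from PBS was 2.79 with cisplatin (SE 0.20, limma adjusted p = 1.71e-09), 1.23 with NMN (adjusted p = 0.000627) and 1.34 with NR (adjusted p = 0.000181). With a pseudocount of 0.1 in place of 1 these were 4.97, 3.01 and 3.17.

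Markers of T and NK cells were low in all groups. Their summed TPM over 8 genes was 2.65 to 6.17 with PBS, 0.14 to 2.81 with cisplatin, 2.26 to 5.13 with NMN and 0.99 to 3.98 with NR. Only 1 of the 8 passed the minimum, and it was not called in any comparison. Pan-leukocyte markers summed to 11.01 to 30.7 TPM with PBS and 8.75 to 23.4 with cisplatin, with 0 of 4 higher and 2 lower.

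Tnfrsf1b encodes TNFR2, the second receptor of TNF, known on leukocytes and endothelium. It measured 0.68, 2.85, 2.14 and 0.89 TPM with PBS and 5.71, 7.61, 4.42 and 7.83 TPM with cisplatin. It measured 2.4, 2.88, 3.15 and 1.67 TPM with NMN and 3.29, 4.26, 2.62 and 2.91 TPM with NR. Cisplatin alone lay above all others, and the precursor groups overlapped PBS. Endothelial markers summed to 144 to 284 TPM with PBS, 61.7 to 127 with cisplatin, 140 to 216 with NMN and 136 to 237 with NR, with 6 of 7 lower in cisplatin against PBS, and their part in the result was not tested. Relative to PBS, log2 differences were 1.54 with cisplatin (SE 0.25, limma adjusted p = 3.95e-05), 0.48 with NMN (adjusted p = 0.363) and 0.76 with NR (adjusted p = 0.0641, or 0.0157 without PBS 2). The NR difference from cisplatin alone, -0.78 (adjusted p = 0.017), was lost under median-of-ratios scaling (adjusted p = 0.0513), without cisplatin 2 (0.0506) or without cisplatin 4 (0.053).

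Ltbr encodes the lymphotoxin beta receptor, which drives the noncanonical NF-kB pathway, and it lies 35.48 kb from Tnfrsf1a on chromosome 6. It measured 42.5, 50.4, 48.2 and 45.6 TPM with PBS and 81.1, 96.9, 74.4 and 91.6 TPM with cisplatin. It measured 60.6, 49.6, 58.7 and 54.9 TPM with NMN and 56.1, 54.5, 59.1 and 52.1 TPM with NR. Cisplatin alone was above every other library, and NR libraries were above every PBS library without passing the test. Relative to PBS, log2 differences were 0.86 with cisplatin (SE 0.11, limma adjusted p = 1.41e-06; 0.55 after median-of-ratios scaling), 0.25 with NMN (adjusted p = 0.216) and 0.24 with NR (adjusted p = 0.174).

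Tnfrsf14 encodes HVEM, the receptor of LIGHT and of the inhibitory receptor BTLA. It measured 1.42, 6.33, 2.83 and 1.56 TPM with PBS and 0.29, 0.53, 0.64 and 0.50 TPM with cisplatin. It measured 1.81, 1.70, 0.95 and 1.58 TPM with NMN and 0.94, 1.71, 3.27 and 1.30 TPM with NR. Cisplatin alone was below all other libraries, while PBS 2 stood above the rest of its group. The log2 difference from PBS was -1.29 (SE 0.30, limma adjusted p = 0.00127).

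Cd40 encodes the receptor of CD40 ligand on B cells and antigen-presenting cells. It measured 0.71, 2.68, 0.39 and 0.82 TPM with PBS and 1.73, 0.64, 0.99 and 1.80 TPM with cisplatin. It measured 1.06, 1.95, 1.35 and 0.38 TPM with NMN and 1.00, 1.59, 1.87 and 1.59 TPM with NR, and the 4 groups overlapped. The log2 difference of cisplatin from PBS was 0.16 (95% interval -0.45 to 0.77, limma adjusted p = 0.654). Tnfrsf11a, the receptor RANK, averaged 1.00 ± 0.58 TPM with PBS, 1.32 ± 0.48 in cisplatin libraries, 1.13 ± 0.62 with NMN and 0.73 ± 0.11 with NR (SD), and was not called in any comparison.

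**Figure D2:**
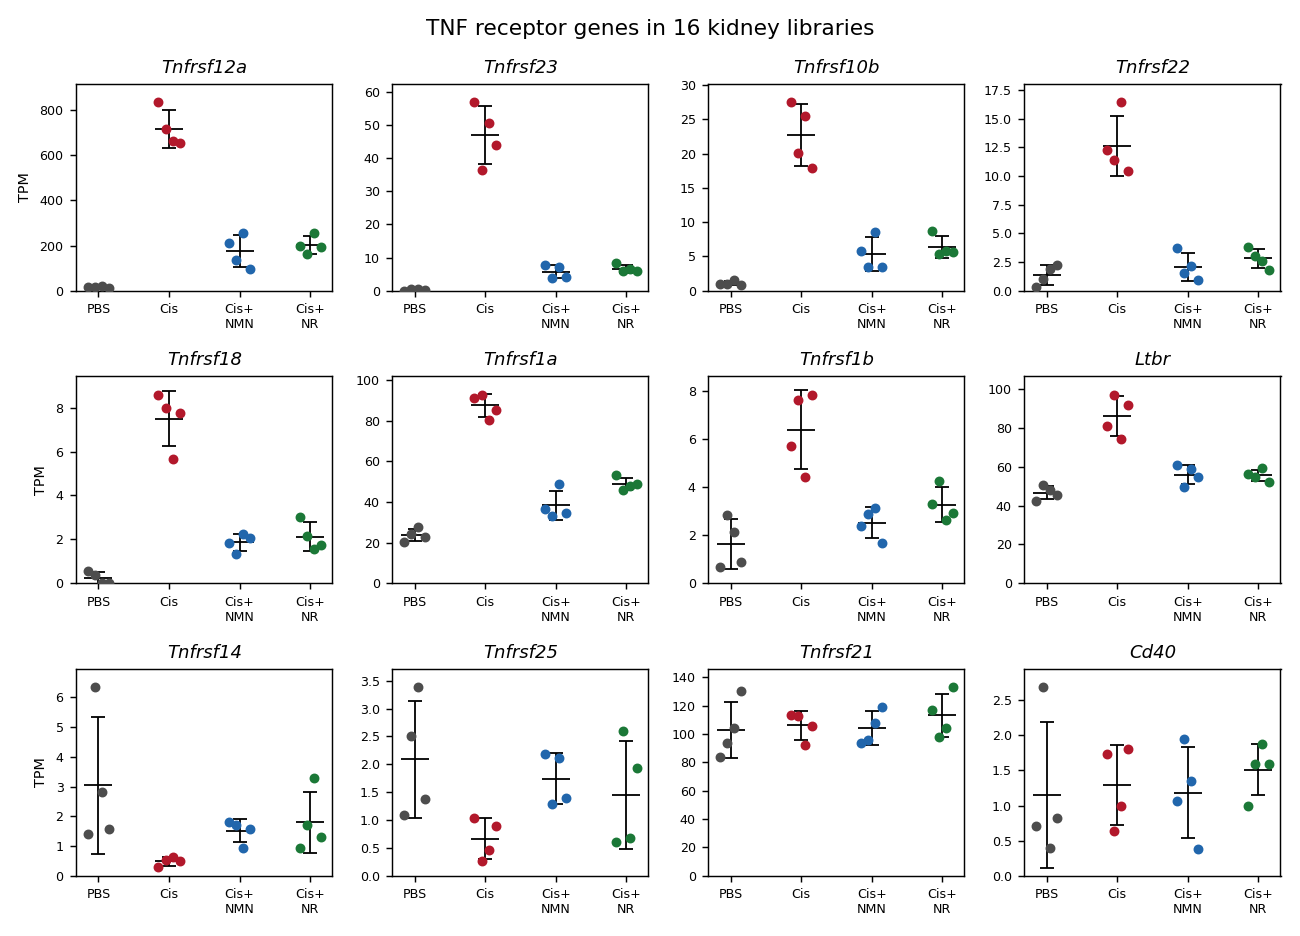
Expression (TPM, linear axis from 0, a separate scale per panel) of 12 tested receptor genes in each of the 16 libraries; points are libraries, horizontal bars are group means and whiskers are 1 SD. Tnfrsf12a, Tnfrsf23, Tnfrsf10b and Tnfrsf18 show 3 separate levels, with PBS lowest and cisplatin alone highest, and Tnfrsf21 shows 4 overlapping groups.

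Beside cisplatin alone, 11 of 18 tested members (61.1%) were called lower and 3 (16.7%) higher with NMN. Among all tested genes 34.0% were called lower and 15.1% higher. With NR, 11 (61.1%) were called lower and 2 (11.1%) higher, against 32.2% and 14.4% of all tested genes. In each of these comparisons the lower genes were Tnfrsf12a, Tnfrsf23, Tnfrsf10b, Tnfrsf18, Tnfrsf22, Tnfrsf1a, Tnfrsf1b, Ltbr, Tnfsfm13, Tnfsf12 and Tnfsf13. Median log2 differences over the members were -0.96 with NMN and -0.80 with NR, against -0.23 and -0.20 over all tested genes. After median-of-ratios scaling all genes split into 23.3% lower and 22.4% higher with NMN and 22.1% lower and 21.5% higher with NR. The members then counted 11 lower and 3 higher with NMN, and 10 lower and 2 higher with NR. All comparisons against cisplatin alone share the same 4 cisplatin libraries with the comparison of cisplatin against PBS, so the opposite signs are not independent of it.

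Several of the calls for higher members were lost when 1 library was left out. Tnfsf10 was called in both comparisons. Tnfrsf14 was 0.74 higher on the log2 scale with NMN (limma adjusted p = 0.0493), and this call was lost when any of PBS 3, the 4 cisplatin libraries, NMN 1, NMN 2, NMN 4, NR 2 or NR 4 was left out. With NR it was 0.85 higher (adjusted p = 0.0273), and the call was lost without cisplatin 1, NR 2 or NR 3. Tnfrsf25 was 0.73 higher with NMN (adjusted p = 0.0421), lost without cisplatin 2, cisplatin 3, NMN 1, NMN 3 or NMN 4. The count of higher members with NMN was 1 without cisplatin 2, cisplatin 3, NMN 1 or NMN 4, and with NR it was 1 without cisplatin 1, NR 2 or NR 3.

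Against PBS, 6 of 18 tested members (33.3%) were called higher with NMN and 6 with NR, and 0 were called lower. Among all tested genes 5.89% were called higher and 0.116% lower with NMN, and 8.79% and 1.21% with NR. In each of these comparisons, which share the PBS libraries, the higher members were Tnfrsf12a, Tnfrsf23, Tnfrsf10b, Tnfrsf18, Tnfsfm13 and Tnfrsf1a. The other 4 members that were higher with cisplatin alone, Tnfrsf22, Tnfrsf1b, Tnfsf12 and Ltbr, did not pass against PBS with either precursor. Among the members that were not called, 2 with NMN and 5 with NR had an unadjusted limma p under 0.05 in either direction. With NMN, Tnfsf13 was the lower one and Ltbr the higher one. With NR, Tnfsf10 and Tnfsf13 were lower, and Ltbr, Tnfrsf1b and Tnfrsf22 were higher. The medians over the members were 0.18 with NMN and 0.28 with NR, against 0.04 and 0.06 over all tested genes.

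**Figure D3:**
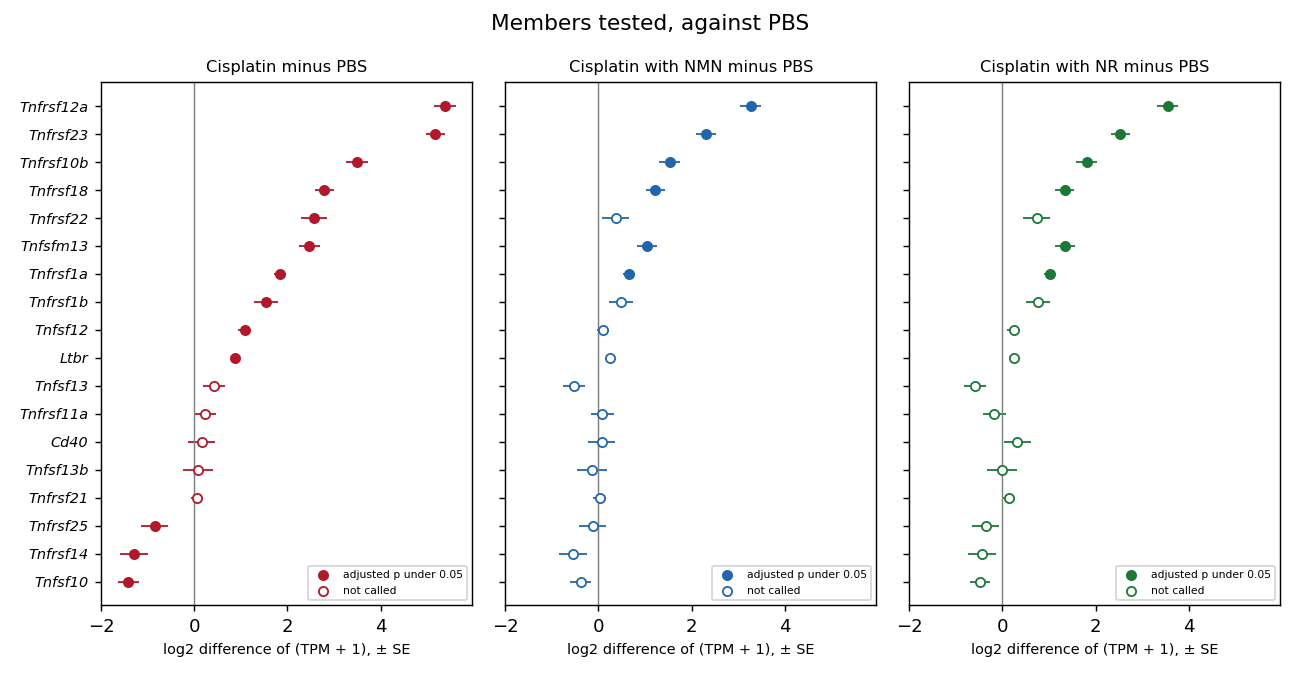
Log2 difference of (TPM + 1) from PBS for the 18 tested members for cisplatin alone and with either precursor added; points are limma estimates, bars are 1 SE, and filled points passed an adjusted p of 0.05. In the left panel 10 members lie to the right and 3 to the left as filled points, and in the other 2 panels 6 filled points remain, all to the right.

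Between NMN and NR, 0 of 18 members were called with limma, as were 0 of all 12960 tested genes (0%). A single member had an unadjusted p under 0.05: Tnfrsf1a was lower with NMN by a log2 difference of -0.36 (95% interval -0.62 to -0.10, limma adjusted p = 1.00), and its NMN and NR libraries overlapped. The intervals show what was left undetected: that of Tnfrsf12a ran from -0.76 to 0.20, that of Tnfrsf10b from -0.76 to 0.21 and that of Tnfrsf23 from -0.66 to 0.22.

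Ligand and receptor genes moved unequally within both pairs that the results turn on. The ratio of Tnfrsf12a to Tnfsf12 in TPM was 0.66 to 1.16 in PBS libraries, 15.5 to 19.7 with cisplatin, 5.68 to 10.8 with NMN and 6.33 to 10.2 with NR. The ratio of Tnfrsf10b to Tnfsf10 was 0.09 to 0.19 with PBS, 8.55 to 17.7 with cisplatin, 0.45 to 1.58 with NMN and 0.87 to 2.00 with NR. In both pairs PBS, precursor and cisplatin libraries formed separate ranges. The ratios use the values given above, in which both receptor genes alone already formed separate levels, so they are not a further result. The level of Tnfsf12 is uncertain because it shares exons with Tnfsfm13. Receptor and ligand moved in the same direction with cisplatin for the first pair and in opposite directions for the second.

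**Figure D4:**
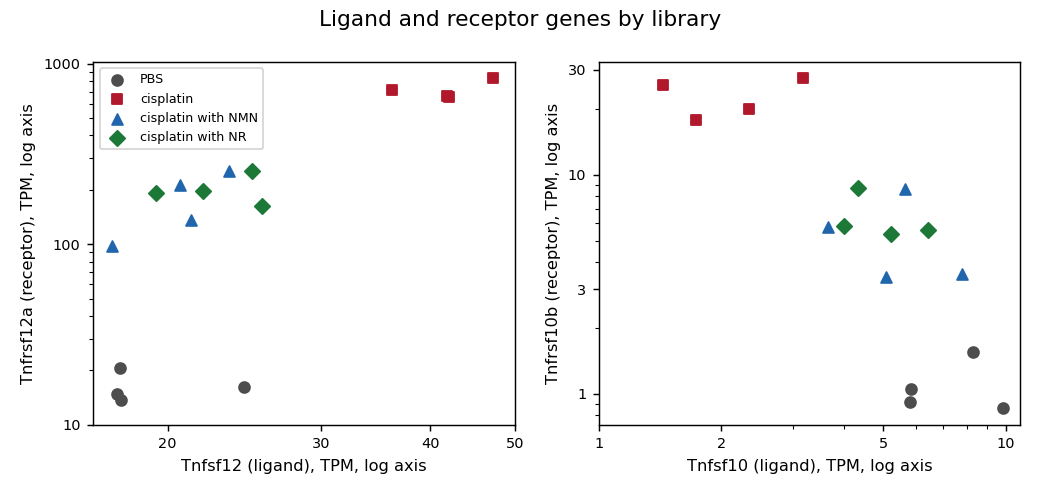
Receptor against ligand expression (TPM, both axes logarithmic) for Tnfrsf12a with Tnfsf12 and for Tnfrsf10b with Tnfsf10; each point is 1 of the 16 libraries, coloured and shaped by group. Cisplatin libraries lie at the upper right in the first panel (Tnfrsf12a of 653 to 832 TPM) and at the upper left in the second (Tnfsf10 of 1.44 to 3.18 TPM).

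The genes that act next to the receptors were mostly higher with cisplatin. The list held adaptors, kinases, ubiquitin ligases and NF-kB subunits, and 35 of its 36 genes were measured and tested. With cisplatin 27 were called higher than with PBS and 1 lower, against 40.7% and 18.6% of all tested genes. After median-of-ratios scaling the counts were 20 and 1, against 29.2% and 28.6%. The median log2 difference was 0.84, against 0.27 over all tested genes. The largest differences were those of Nfkb2 and Relb, the subunits of the noncanonical NF-kB pathway, and of Tnfaip3, which encodes the NF-kB inhibitor A20. Nfkb2 was 5.96 ± 1.13 TPM with PBS and 57.6 ± 7.88 with cisplatin (log2 difference 3.08, limma adjusted p = 9.08e-11). Relb was 2.96 ± 1.06 and 26.4 ± 3.95 TPM (2.82, adjusted p = 2.04e-08), and Tnfaip3 0.89 ± 0.35 and 11.3 ± 2.31 TPM (2.71, adjusted p = 2.23e-09). The single lower gene was Chuk, which encodes the kinase IKK alpha, at 60.4 ± 5.49 and 44.8 ± 10.3 TPM (-0.45, adjusted p = 0.012), with overlapping libraries.

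Of the same 35 genes, 23 were lower and 1 higher with NMN than with cisplatin alone, and 21 were lower and 0 higher with NR. Of all tested genes, 34.0% were lower and 15.1% higher with NMN, and 32.2% and 14.4% with NR. After median-of-ratios scaling 18 were lower and 1 higher for each precursor, against 23.3% and 22.4% of all genes with NMN and 22.1% and 21.5% with NR. Against PBS 5 were higher with NMN and 5 with NR, beside 5.89% and 8.79% of all tested genes, and 0 were lower. Nfkb2, Relb, Tnfaip3 and Birc3, an inhibitor of apoptosis that is a target of NF-kB, were higher with each precursor. Map3k14, which encodes the kinase NIK, passed with NMN, and Tank passed with NR, while in NMN against NR neither gene was called.

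**Figure D5:**
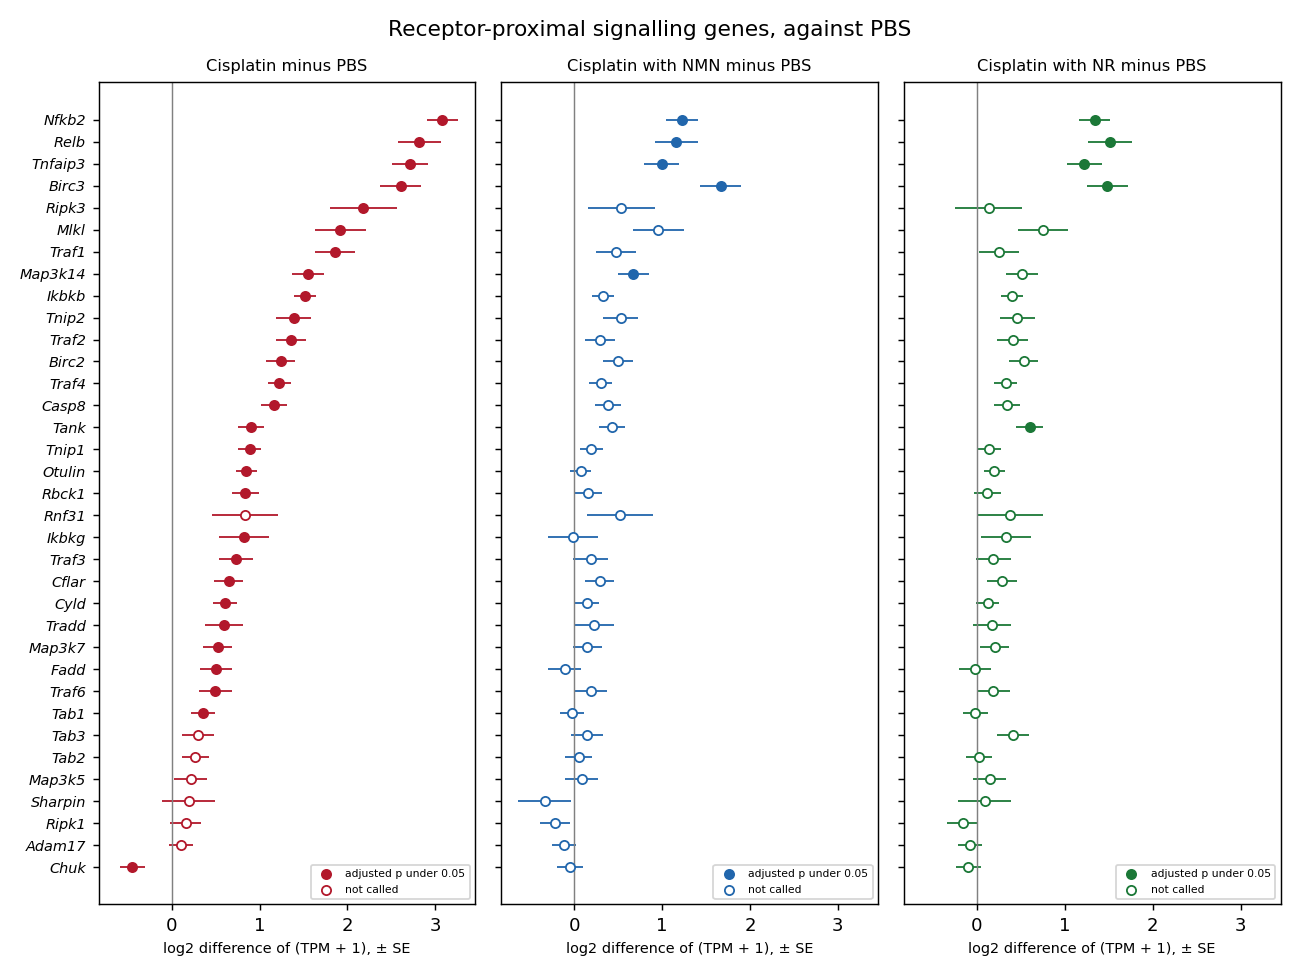
Log2 difference of (TPM + 1) from PBS for 35 signalling genes next to the TNF receptors for cisplatin alone and with either precursor added; points are limma estimates, bars are 1 SE, and filled points passed an adjusted p of 0.05. With cisplatin 27 filled points lie to the right of 0 and 1, Chuk, to the left, and 5 filled points remain in each of the other 2 panels.

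Superfamily genes whose symbols fall outside the naming rule gave 3 tested genes. Eda2r, the ectodysplasin A2 receptor, measured 0.15 ± 0.14 TPM with PBS, 18.8 ± 3.83 in cisplatin libraries, 3.78 ± 1.30 with NMN and 4.84 ± 1.43 with NR. Its log2 difference from PBS was 4.10 with cisplatin (limma adjusted p = 3.54e-11), and it was also higher with each precursor. Fas, the receptor of Fas ligand, measured 5.89 ± 1.56 TPM with PBS, 14.5 ± 1.54 in cisplatin libraries, 7.34 ± 1.44 with NMN and 10.3 ± 1.83 with NR. It was higher than PBS with cisplatin (1.20, adjusted p = 1.49e-05) and with NR (0.73, adjusted p = 0.0121), and lay 0.29 from PBS with NMN (adjusted p = 0.473), while NMN and NR were not called apart (adjusted p = 1.00). Relt was not called.

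The remaining 20 members did not pass the minimum. Tnfsf4 was listed at 0 in all libraries, 12 members including it stayed under 1 TPM in every library, and 8 reached 1 TPM in 1 to 3 libraries. Tnf, the founding ligand of the family, measured 0.13, 0.22, 0.29 and 0.10 TPM with PBS, 0.28, 0.42, 0.68 and 0.72 with cisplatin, 0.54, 0.17, 0.56 and 0.21 with NMN and 0.22, 0.87, 0.16 and 0.18 with NR. All of these were under 1 TPM, and PBS and cisplatin overlapped. With no minimum on the values the log2 difference of Tnf in cisplatin against PBS was 0.36 (SE 0.15, limma adjusted p = 0.0748).

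The highest value of the other ligands was 1.48 TPM for Ltb, 0.69 for Lta, 0.15 for Tnfsf11, 0.76 for Tnfsf14, 1.02 for Tnfsf15, 0.10 for Tnfsf18, 0.21 for Tnfsf8 and 1.46 for Tnfsf9. Among receptors it was 1.38 TPM for Ngfr, 0.62 for Tnfrsf11b, 0.09 for Tnfrsf13c, 0.11 for Tnfrsf17, 0.73 for Tnfrsf19, 1.48 for Tnfrsf4, 0.11 for Tnfrsf8 and 2.29 for Tnfrsf9. Tnfrsf13b, the receptor TACI of B cells, reached 4.51 TPM in NMN 2 and at most 0.96 TPM in any other library. Tested without the minimum, 37 members entered the fit, of which 12 (32.4%) were called higher and 4 (10.8%) lower in cisplatin against PBS. Among all genes tested in this way 30.6% were called higher and 14.2% lower, so both shares of the members were near those of all genes. The members added to the calls were Tnfsf15 and Tnfrsf9, both higher, and Tnfrsf11b, lower. Tnfrsf9 and Tnfrsf11b passed narrowly (limma adjusted p = 0.0498 and 0.0459) and on low values. Tnfrsf9 measured 0.20 to 2.29 TPM with cisplatin and overlapped PBS (0 to 0.64 TPM). Tnfrsf11b was listed at 0 in every cisplatin library and measured 0.02 to 0.62 TPM with PBS. Tnfsf15 encodes TL1A, the ligand of the Tnfrsf25 product, and averaged 0.31 ± 0.11 TPM with PBS and 0.87 ± 0.11 with cisplatin (log2 difference 0.52, limma adjusted p = 0.000294). Its 4 cisplatin libraries, at 1.02, 0.89, 0.80 and 0.78 TPM, were above every PBS library.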

How the data were processed

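The deposited table holds TPM for 16 mouse kidney libraries, which the authors made from RNA-seq reads (2 decimals, 23982 entries). The tools named, per the submitters' processing notes, were DESeq2 1.10.1, HTSeq 0.6.1, STAR 2.4.1d and Trim Galore, with the builds GRCm38 and mm10. Roles, annotation, gene lengths and strandedness were not given in the sources used here. Since TPM has a fixed total, falls of abundant transcripts raise all other values.

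Entries sharing a symbol were summed. Genes with at least 1 TPM in 4 or more libraries were fitted as log2(TPM + 1) with limma 3.58.1 (statmod 1.5.0, R 4.3.3), using 4 group means, 12 residual degrees of freedom, trend and robust moderation, two-sided, and Benjamini-Hochberg adjustment over 12960 genes. The procedure was tested on simulated data. Groups came from the titles. Members, roles and gene lists were chosen with earlier results of these data known. Library values are given for members called with a log2 change of at least 1 and for Tnf, Tnfrsf1a, Tnfrsf1b, Cd40 and Ltbr. Of the signalling genes, the 3 largest changes each way were named. Positions came from GENCODE vM21 and windows from RefSeq, both on GRCm38. Figures were drawn with matplotlib 3.10.9 (Python 3.11.15, numpy 2.4.6, pandas 2.3.3). Alternatives covered scaling, pseudocount, minimum, moderation, weights, a replicate block and left-out libraries.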

Additional observations from a re-analysis of the deposited data

Results flagged for a closer look

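Of 76 groups of 4 libraries examined, 4 held a library whose gap to its nearest neighbour, as a share of the group's range, exceeded Dixon's 95% critical value, and chance flags about 1 in 20 groups. Tnf measured 0.87 TPM in NR 2, against 0.16 to 0.22 TPM in the other NR libraries. Tnfrsf10b measured 8.70 TPM in NR 1, against 5.38 to 5.85 TPM in the rest. Tnfsf12 measured 24.47 TPM in PBS 2, against 17.52 to 17.71 TPM. Tnfsfm13 measured 2.25 TPM in PBS 3, the lowest of its group, against 2.71 to 2.80 TPM.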

How the results depend on the processing

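Of 108 log2 differences of tested members, 99 kept their call in every one of the 28 alternatives that tested the gene. In 0 cases did a difference change sign while called in the main fit or in the alternative. Some uncalled differences did change sign, such as that of Tnfrsf21 in cisplatin against PBS (-0.26 to 0.18 over the alternatives). Leaving out 1 library gave 10 to 11 higher and 2 to 3 lower members for cisplatin against PBS, 1 to 3 higher and 11 lower for NMN against cisplatin, 1 to 2 higher and 10 to 11 lower for NR against cisplatin, 6 higher and 0 lower for NMN against PBS, 6 to 7 higher and 0 lower for NR against PBS, and 0 for NMN against NR. A minimum of 5 TPM left 11 members, with 1 lower for cisplatin against PBS and 1 higher for each precursor against cisplatin. Quantile normalization gave 1 higher for each precursor against cisplatin and 2 lower, Tnfsf10 and Tnfsf13, for NR against PBS. Without PBS 1, cisplatin 1 and cisplatin 3 there was 1 higher for each precursor against cisplatin. With no minimum there was 1 higher for NMN against cisplatin, and without NR 3 and NR 4 there was 1 higher for NR against cisplatin. Except where fewer members were tested, the cause was not tested. Deviations of same-numbered libraries correlated above 0.1 in 9 of 24 pairs (-0.13 to 0.287). Differently numbered pairs were not compared, so whether replicate numbers pair the samples cannot be told from these values. With the replicate number as a block, the counts were 10 higher and 3 lower, 2 and 11, 2 and 11, 6 and 0, 7 and 0, and 0 and 0 in the order above. Under the block Tnfrsf1b passed in NR against PBS (limma adjusted p = 0.0426) and Tnfrsf25 no longer passed in NMN against cisplatin (0.0598), and no other call changed. TPM keeps no depth, so low values cannot be given a counting error.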
